A study of Mus musculus with 32 samples.

Results

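Major urinary proteins are small lipocalins made by hepatocytes, released into the blood and excreted in the urine, where they carry volatile pheromones and act as pheromones themselves. Their genes form a large cluster of recent duplicates on mouse chromosome 4, and their hepatic expression is known to be higher in males, under the pulsatile secretion of growth hormone and the transcription factor STAT5b. The 10 genes described here are Mup1, Mup2, Mup3, Mup7, Mup10, Mup12, Mup14, Mup17, Mup20 and Mup21, chosen by gene symbol. All 10 were found among the 41585 rows of each count table, and all 10 passed the filter on low counts in both sexes.

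Liver RNA was sequenced from wildtype (WT) mice and from mice lacking Cyp2b9, Cyp2b10 and Cyp2b13 (Cyp2b-null), made with CRISPR/Cas9, and both were C57BL/6 by the labels and of the J substrain by the study's methods. Mice of both sexes were fed normal chow (ND) or CDAHFD, a high-fat, L-amino acid-defined diet deficient in choline that has 62% fat and 0.1% methionine and brings on steatohepatitis. Feeding began at 10 weeks of age and lasted 8 weeks, and each of the 8 groups of genotype, diet and sex had 4 libraries, 32 in all. The WT mice were purchased and the Cyp2b-null mice came from a colony of their own, so genotype and source cannot be told apart. The labels do not state that libraries came from separate mice, so the p-values measure the spread between these libraries.

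Library totals ranged from 2906411 to 10166959 counts. Cyp2b9 ranged from 524 to 611 CPM (counts scaled to a common library size) in ND-fed WT females and from 0.837 to 1.92 CPM in ND-fed Cyp2b-null females, with no overlap. Cyp2b13 had 0 counts in every ND-fed WT male library, so in ND-fed males it could not tell the genotypes apart, whereas Cyp2b10 ranged from 6.07 to 14.7 CPM in ND-fed WT males and from 0.211 to 1 CPM in ND-fed Cyp2b-null males. Summed over 10 hepatocyte markers, the level ranged from 149000 to 245000 CPM on ND and from 91900 to 176000 CPM on CDAHFD. Levels below are CPM after TMM scaling over all 32 libraries. In CDAHFD-fed males, WT replicate 1 and Cyp2b-null replicate 4 stood above their groups in several members, and counts that rest on them are given with and without them. In bulk liver, fewer hepatocytes and less Mup RNA per hepatocyte cannot be told apart.

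The near-identity of these genes limits what each row can show. Between coding sequences, Mup1, Mup2, Mup7, Mup10, Mup12, Mup14 and Mup17 were 98.5% to 99.6% identical over 21 pairs, whereas Mup20 was 87.1% to 91% identical to the other members. Only 9.25% (Mup2) to 24.1% (Mup12) of the 150-base stretches in 6 of these transcripts occurred in no other Mup transcript, against 59.6% for Mup17, 68.9% for Mup20 and 100% for Mup3 and Mup21. Reads from the first 6 can therefore be placed on the wrong copy or left out, and their single values are uncertain. The stretch below shows where Mup20 differs from some of the near-identical members, with capitals marking the 20 positions at which any of these 5 genes differ. Mup3 and Mup21 are not shown. The stretch covers coding bases 151 to 240 in the numbering of Mup7 (GENCODE vM21 transcripts, GRCm38, minus strand). It was chosen as the 90-base window with the most differing positions, so the genes differ less over the whole coding sequence.
Mup7: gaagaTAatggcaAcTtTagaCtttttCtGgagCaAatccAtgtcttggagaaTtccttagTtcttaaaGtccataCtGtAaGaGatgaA
Mup10: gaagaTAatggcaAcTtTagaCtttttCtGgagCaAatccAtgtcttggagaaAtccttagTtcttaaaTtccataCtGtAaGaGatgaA
Mup14: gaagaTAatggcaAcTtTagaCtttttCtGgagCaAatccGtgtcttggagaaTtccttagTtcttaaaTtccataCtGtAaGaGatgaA
Mup17: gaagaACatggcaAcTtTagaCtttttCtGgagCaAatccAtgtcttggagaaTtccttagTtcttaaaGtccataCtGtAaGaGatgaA
Mup20: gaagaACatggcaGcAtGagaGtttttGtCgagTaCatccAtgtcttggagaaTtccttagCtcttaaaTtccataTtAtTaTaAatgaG

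All 10 genes lie on the minus strand of chromosome 4 and are annotated as protein coding. Mup7 spans chr4:60066469-60070475, Mup14 spans chr4:61300023-61304000 and Mup17 spans chr4:61591929-61595871. The 3 divergent members lie at the far end of the cluster, with Mup20 at chr4:62050234-62054158, Mup3 at chr4:62083476-62087342 and Mup21 at chr4:62147932-62150863. RefSeq promoters (GRCm38.p6, 250 bases before to 50 bases after the annotated start) were matched for 7 of the 10 members, namely Mup2, Mup3, Mup7, Mup10, Mup14, Mup17 and Mup21. The letters TATATAA, searched on both strands after the promoters were seen, occurred in 6 of these 7 and in 3.24% of 32851 promoters, with Mup7 as the exception. The stretch around it is shown for one near-identical member and one divergent member, with the element in capitals.
Mup17 (chr4:61595831-61595917, minus strand): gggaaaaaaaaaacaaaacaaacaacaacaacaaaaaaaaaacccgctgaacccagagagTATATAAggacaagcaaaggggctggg
Mup3 (chr4:62087302-62087388, minus strand): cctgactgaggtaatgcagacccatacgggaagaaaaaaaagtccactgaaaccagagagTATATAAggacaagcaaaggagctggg
The STAT5-type letters TTCNNNGAA, TATAAA and the named HNF1 and glucocorticoid response elements had no match in these 7 windows. They occurred in 8.3%, 13.6%, 0.00913% and 0.00913% of all promoters.

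The first comparison asked how these 10 genes differed between the sexes on ND. On ND, 9 of the 10 genes were higher in WT males than in WT females, against 8.35% of all genes tested that were called higher, and the same number was called in Cyp2b-null mice, against 6.13%. The largest difference was that of Mup14, and Mup10 was the member not called in either genotype. The ranges of males and females did not overlap for 8 members in WT mice and 9 in Cyp2b-null mice, against 18% and 20.2% of all genes.

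Mup14 measured 16.1, 21.8, 5.39 and 9.82 CPM in the 4 ND-fed WT female libraries and 4490, 2280, 3200 and 774 CPM in the 4 male libraries. Every male library was far above every female library. The log2 difference was 7.68 (SE 0.884, adjusted p = 8.8e-08, edgeR quasi-likelihood test) in WT mice and 7.93 (SE 0.889, adjusted p = 5.32e-08) in Cyp2b-null mice. Mup7 measured 61.8, 100, 29.3 and 60.2 CPM in WT females and 5430, 2630, 4230 and 1030 CPM in WT males, again with no overlap. Its log2 difference was 5.73 (SE 0.867, adjusted p = 1.41e-05).

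Mup20 encodes darcin, the male pheromone that attracts females and conditions their memory of a male's scent. It measured 49.3, 22.2, 17.2 and 18.1 CPM in ND-fed WT females and 2620, 674, 2110 and 647 CPM in ND-fed WT males. Every male library was far above every female library, and the log2 difference was 5.80 (SE 0.417, adjusted p = 1.35e-12). In Cyp2b-null mice the log2 difference was 5.95 (SE 0.419, adjusted p = 8.43e-13).

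Mup3 is a divergent member that females also expressed. Its ND-fed WT libraries measured 779, 614, 354 and 464 CPM in females and 3030, 1260, 3100 and 1120 CPM in males, a log2 difference of 1.94 (SE 0.335, adjusted p = 9.17e-05). Mup10 measured 710, 778, 309 and 555 CPM in females and 1240, 438, 968 and 513 CPM in males, and these ranges overlapped. Its log2 difference was 0.42 (SE 0.394, adjusted p = 0.495) in WT mice and 0.76 (SE 0.395, adjusted p = 0.211) in Cyp2b-null mice. Of the rest, Mup1, Mup2, Mup12, Mup17 and Mup21 were higher in ND-fed WT males by 1.78 (Mup2) to 5.46 (Mup21) on the log2 scale. The calls of Mup2 and Mup17 in WT mice rested on single libraries, with adjusted p up to 0.0585 and 0.0914 when 1 library was left out, and that library was ND-fed WT male replicate 1 for Mup2 and that one or ND-fed WT female replicate 3 for Mup17. Without the male library the difference in Mup17 was 1.43, and without ND-fed Cyp2b-null female replicate 3 the Cyp2b-null differences in Mup1 and Mup17 went from 4.81 and 3.21 to 5.51 and 4.18.

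Per kilobase of transcript, the order of the members differed between the sexes. In ND-fed WT females the highest mean levels were those of Mup10 (634 CPM per kb) and Mup3 (589 CPM per kb), followed by Mup7 (67.8), Mup1 (65.5) and Mup17 (48.3). In ND-fed WT males they were those of Mup7 (3590 CPM per kb), Mup14 (2900), Mup3 (2270), Mup1 (1930) and Mup20 (1630). Thus Mup10 and Mup3 made up 42.7% ± 2.77 and 40.9% ± 5.14 (SD, n = 4) of the summed counts of the 10 genes in these females.

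The second comparison asked what CDAHFD did to the male pattern. In WT males 9 of 10 members fell, against 15% of all genes tested that were called lower, and in Cyp2b-null males all 10 fell, against 17.1%. None rose in males of either genotype, against 18% and 20.3% of all genes called higher. The median log2 change of the 10 was -3.26 in WT males and -4.21 in Cyp2b-null males, beside -0.02 and -0.01 over all genes tested. Ranges did not overlap for 6 members in WT males and 9 in Cyp2b-null males, against 28.4% and 36.8% of all genes.

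With all libraries Mup17 had the largest fall of the 10. It measured 433, 205, 111 and 48.3 CPM in ND-fed WT males and 15.4, 1.67, 4.09 and 0.532 CPM in CDAHFD-fed WT males, with no overlap. The log2 change was -5.22 (SE 0.694, adjusted p = 5.91e-06). In Cyp2b-null males it measured 314, 943, 239 and 638 CPM on ND and 2.58, 3.12, 2 and 3.69 CPM on CDAHFD, a log2 change of -7.59 (SE 0.762, adjusted p = 1.24e-07).

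Mup7, the member with the highest ND-fed male level per kilobase, had the next largest fall. On CDAHFD it measured 457, 13.1, 27 and 31.2 CPM in WT males, against 5430, 2630, 4230 and 1030 CPM on ND, and the log2 change was -4.66 (SE 0.931, adjusted p = 5.52e-04). In Cyp2b-null males it went from 2360, 6420, 3170 and 4260 CPM to 25.4, 20.3, 18 and 135 CPM, a log2 change of -6.38 (SE 1.01, adjusted p = 4.04e-05). One CDAHFD-fed library of each genotype stood well above its group, WT replicate 1 and Cyp2b-null replicate 4.

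The same libraries stood out in other near-identical members. Mup14 measured 842, 53.7, 83.2 and 44.2 CPM in CDAHFD-fed WT males, and replicate 1 lay above the lowest ND-fed library of 774 CPM. The log2 change of Mup14 was -3.39 in WT males (SE 0.786, adjusted p = 0.00207) and -5.06 in Cyp2b-null males (SE 0.852, adjusted p = 7.56e-05). Mup1 measured 340, 15.6, 24.2 and 19.2 CPM in CDAHFD-fed WT males and 27.9, 30.2, 17.9 and 112 CPM in the Cyp2b-null males on this diet. The log2 changes of Mup1 were -4.17 (SE 0.851, adjusted p = 6.8e-04) and -5.63 (SE 0.915, adjusted p = 5.18e-05). Without WT replicate 1 the WT changes were -7.10 for Mup7, -6.47 for Mup1, -6.39 for Mup17, -5.45 for Mup14, -5.19 for Mup12, -3.58 for Mup21 and -3.12 for Mup2, so that Mup7 and not Mup17 then fell most. Without ND-fed WT replicate 1 the change of Mup17 was -4.51. Without Cyp2b-null replicate 4 the Cyp2b-null changes were -7.58 for Mup7, -6.50 for Mup1 and -5.82 for Mup14. With both high libraries left out, a setting added after their values were seen, 9 members were still called lower in each genotype.

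Mup10 and Mup2 fell least among the near-identical members. Mup10 measured 1240, 438, 968 and 513 CPM in ND-fed WT males and 534, 214, 223 and 217 CPM in CDAHFD-fed WT males, which overlapped through replicate 1. The log2 change was -1.41 (SE 0.342, adjusted p = 0.00298) in WT males and -2.30 (SE 0.351, adjusted p = 2.56e-05) in Cyp2b-null males. The log2 change of Mup2 was -2.16 and -3.29, and that of Mup12 was -3.54 and -4.89, all of them called.

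The divergent members Mup3 and Mup21 fell without overlap between the diets. Mup3 measured 381, 157, 195 and 237 CPM in CDAHFD-fed WT males, against 1120 to 3100 CPM on ND, and the log2 change was -3.13 (SE 0.325, adjusted p = 2.65e-07). In Cyp2b-null males it fell from between 1730 and 2520 CPM to 164, 170, 162 and 272 CPM, a log2 change of -3.54 (SE 0.331, adjusted p = 5.01e-08). Mup21 fell from a range of 62.3 to 160 CPM to one of 7.81 to 34.9 CPM in WT males and from 90.8 to 160 CPM to 9.89 to 12.7 CPM in Cyp2b-null males. As given above, 150-base stretches of these transcripts occur in no other Mup transcript.

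Mup20 was the least changed member in males. It measured 1100, 693, 1270 and 956 CPM in CDAHFD-fed WT males, within the ND range of 647 to 2620 CPM. The log2 change was -0.59 (SE 0.347, adjusted p = 0.205). In Cyp2b-null males it measured 1080, 2550, 2210 and 2290 CPM on ND and 990, 1180, 1050 and 954 CPM on CDAHFD, and the log2 change was -0.95 (SE 0.348, adjusted p = 0.0358). That call was lost when any 1 of 7 libraries was left out, with adjusted p up to 0.0967, and on library size alone, with adjusted p = 0.188.

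**Figure D1:**
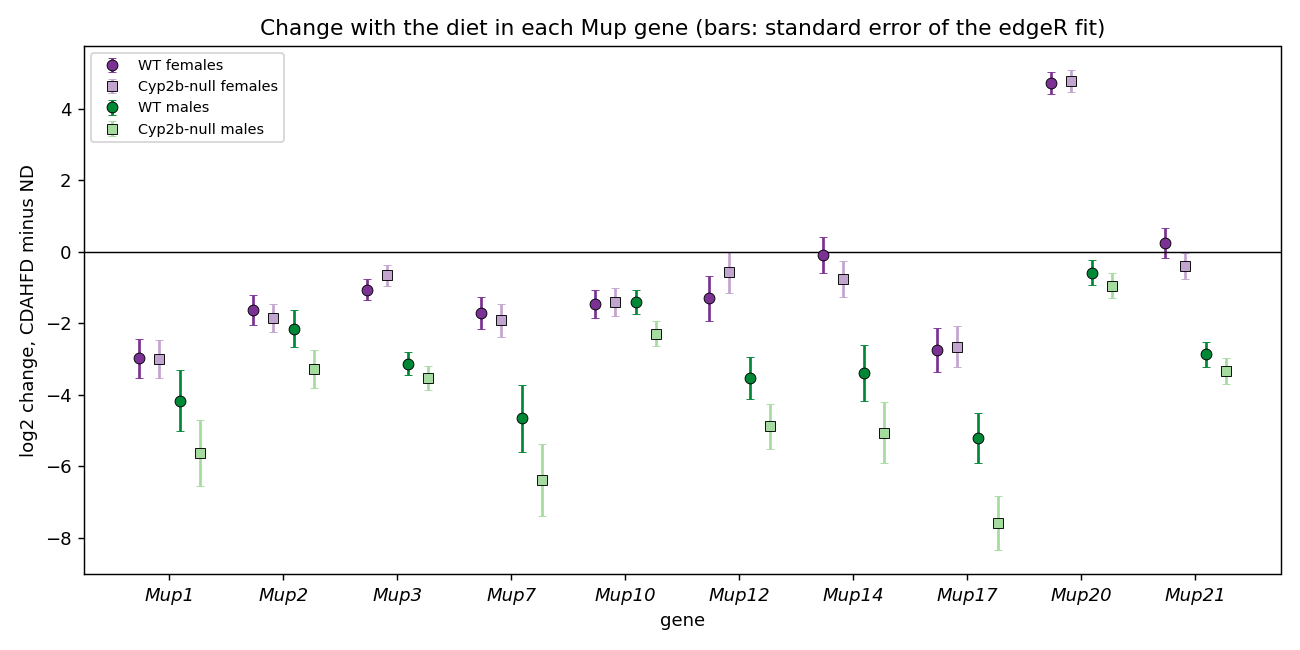
Log2 change of each Mup gene from ND to CDAHFD (vertical axis) in WT and Cyp2b-null females and males, with standard errors of the edgeR fit as bars. Mup20 rose by 4.72 and 4.77 in females, and the largest fall was that of Mup17 in Cyp2b-null males, at -7.59.

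In females Mup20 rose with CDAHFD. Mup20 was the only one of the 10 members called higher in WT females, where 6 fell and 3 were not called, against 13.9% of all genes called higher and 10.2% called lower. In Cyp2b-null females Mup20 rose, 5 fell and 4 were not called, against 16.9% and 13.9%. The ranges did not overlap for 5 and 6 members, against 26% and 30.8% of all genes.

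Mup20 went from 49.3, 22.2, 17.2 and 18.1 CPM in ND-fed WT females to 397, 866, 792 and 754 CPM in CDAHFD-fed WT females. Every CDAHFD library was far above every ND library. The log2 change was 4.72 (SE 0.312, adjusted p = 8.22e-10), a 26.4-fold rise. In Cyp2b-null females it went from 32.1, 36.9, 33.8 and 28.6 CPM to 945, 918, 1050 and 620 CPM, a log2 change of 4.77 (SE 0.312, adjusted p = 7.24e-10), or 27.3-fold. The rise was called in both genotypes under every alternative test, scaling and filter and with any single library left out.

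The members that fell in females of both genotypes were Mup1, Mup2, Mup7, Mup10 and Mup17. Mup1 measured 69, 85.7, 21.2 and 67 CPM in ND-fed WT females and 3.72, 6.85, 15.3 and 4.53 CPM on CDAHFD, with no overlap. Its log2 change was -2.98 (SE 0.541, adjusted p = 3.23e-04) in WT females and -3 (SE 0.522, adjusted p = 1.95e-04) in Cyp2b-null females. Without CDAHFD-fed replicate 3 the WT change of Mup1 was -3.59, and without ND-fed replicate 3 the Cyp2b-null change was -2.30. Mup17 measured 58.8, 54.3, 13.1 and 52.7 CPM in ND-fed WT females and 3.94, 6.14, 11.8 and 4.53 CPM on CDAHFD, a log2 change of -2.75 (SE 0.604, adjusted p = 0.00184). In Cyp2b-null females it fell by 2.66, and by 1.68 without ND-fed replicate 3.

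Mup10, which with Mup3 made up most of the summed counts of the 10 genes in ND-fed females, measured 93.7, 243, 360 and 144 CPM in CDAHFD-fed WT females. Replicate 3 lay inside the ND range of 309 to 778 CPM. The log2 change was -1.46 (SE 0.391, adjusted p = 0.00872) in WT females and -1.41 (SE 0.39, adjusted p = 0.00935) in Cyp2b-null females. Mup7 fell by 1.71 and 1.92 on the log2 scale, and both calls were lost in a fit to all 32 libraries, with adjusted p = 0.108 and 0.056.

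Mup3 was called in WT females alone. It measured 167, 313, 350 and 212 CPM in CDAHFD-fed WT females, just below the ND range of 354 to 779 CPM, and the log2 change was -1.06 (SE 0.3, adjusted p = 0.0126). Without ND-fed WT female replicate 1 the adjusted p was 0.0562. In Cyp2b-null females the log2 change was -0.66 (SE 0.298, adjusted p = 0.1), and it was called without CDAHFD-fed replicate 3, with adjusted p = 0.0176. The genotypes' changes were not shown to differ (log2 difference 0.41, SE 0.42, adjusted p = 0.84). Mup12, Mup14 and Mup21, all at means of 1.16 to 16.2 CPM in females, were called in neither genotype.

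**Figure D2:**
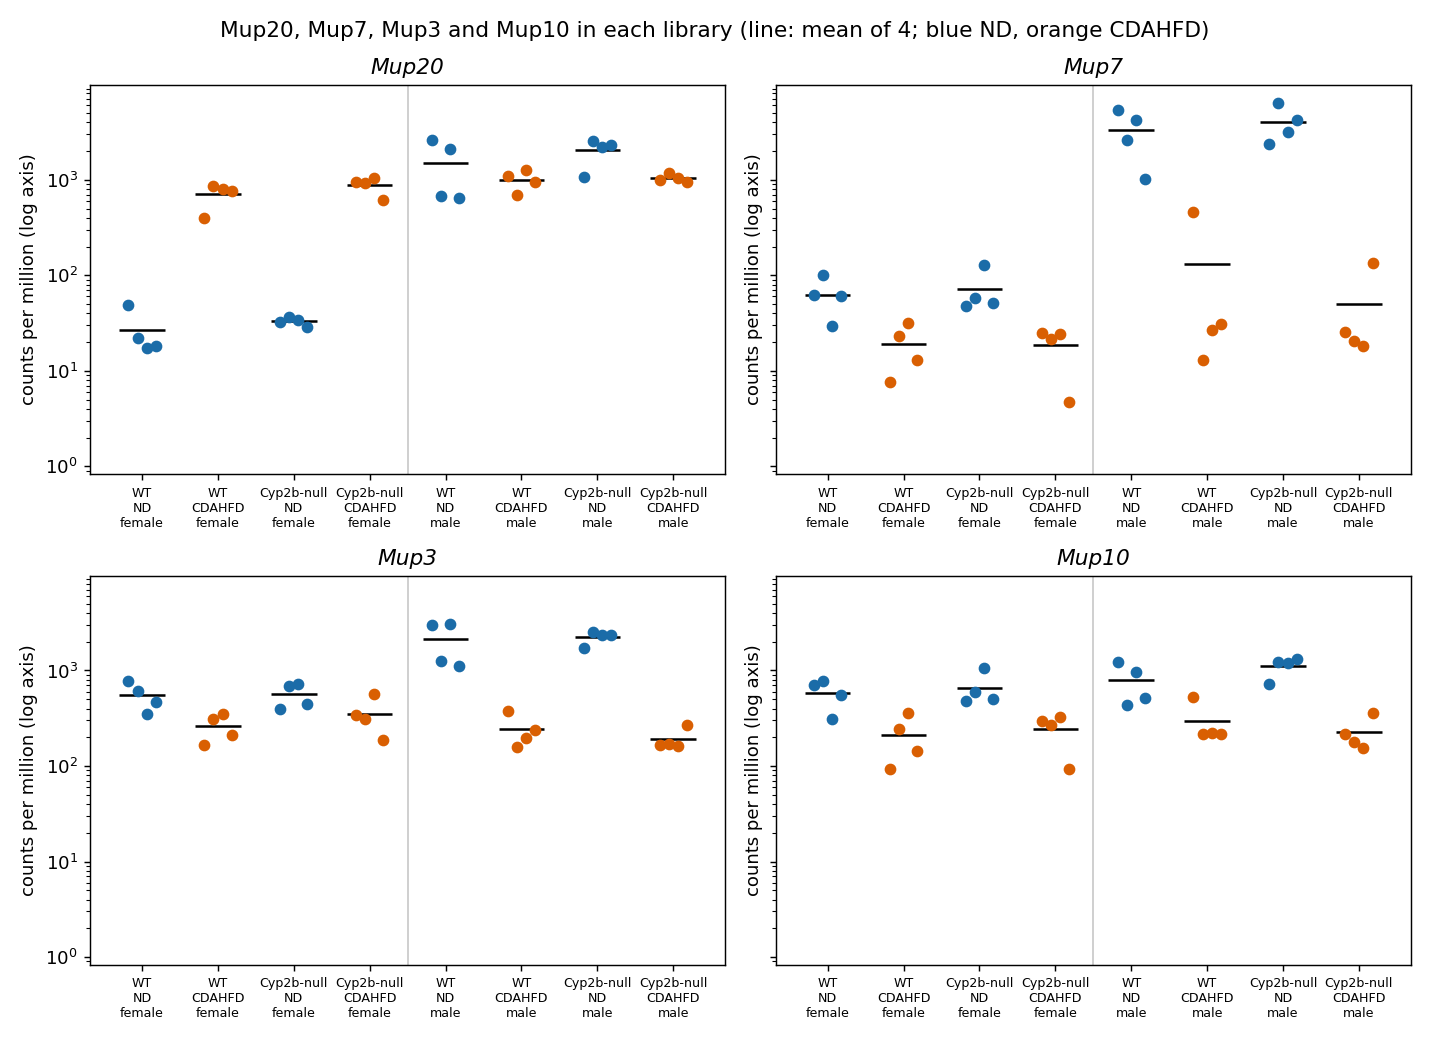
CPM of Mup20, Mup7, Mup3 and Mup10 in each library (points, log axis) by genotype, diet and sex, with group means as lines. Mup20 in CDAHFD-fed females (397 to 1050 CPM) lies near or among the male libraries, whereas Mup7 in CDAHFD-fed males (13.1 to 457 CPM) lies below every ND-fed male library (1030 to 6420 CPM).

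On CDAHFD the sex difference in Mup20 was not called. Ordered by mean, Mup20 was lowest in ND-fed WT and Cyp2b-null females (26.7 and 32.8 CPM) and then rose to CDAHFD-fed WT females (702 CPM), the only step between neighbouring groups whose libraries did not overlap. Above it came CDAHFD-fed Cyp2b-null females (883 CPM), CDAHFD-fed WT and Cyp2b-null males (1000 and 1050 CPM) and ND-fed WT and Cyp2b-null males (1510 and 2030 CPM). The log2 difference between males and females on CDAHFD was 0.52 (SE 0.333, adjusted p = 0.338) in WT mice and 0.24 (SE 0.332, adjusted p = 0.65) in Cyp2b-null mice. Without the filter on low counts the WT difference of 0.52 in Mup20 was called (adjusted p = 0.023). That fit also gave far smaller adjusted p in other comparisons, as described below, so the call is not read as a sex difference. The difference between the sexes in the response to CDAHFD was -5.29 (SE 0.511, adjusted p = 3.98e-08) in WT mice and -5.71 (SE 0.513, adjusted p = 1.2e-08) in Cyp2b-null mice.

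Across the 10 members, 5 were still called higher in males among CDAHFD-fed WT mice, against 5.91% of all genes, and 3 among CDAHFD-fed Cyp2b-null mice, against 9.06%. The 5 were Mup1, Mup7, Mup12, Mup14 and Mup21, and the 3 were Mup1, Mup14 and Mup21. Ranges did not overlap for 4 and 3 members, against 17.5% and 20.3% of all genes. Mup14 kept the largest difference, 4.40 (SE 0.776, adjusted p = 4.12e-04) in WT mice and 3.65 (SE 0.769, adjusted p = 0.00147) in Cyp2b-null mice on the log2 scale. Without CDAHFD-fed WT male replicate 1 the WT difference was 2.31 for Mup14 and 1.64 for Mup21, the WT count was 2, and Mup1, Mup7 and Mup12 had adjusted p of 0.193, 0.791 and 0.195. The call of Mup7 was also lost without CDAHFD-fed WT female replicate 1, 2 or 4. Without CDAHFD-fed WT female replicate 3 the differences in Mup14 and Mup1 were 5.14 and 4.32, and without CDAHFD-fed Cyp2b-null male replicate 4 the Cyp2b-null differences were 2.90 and 1.34. The call of Mup1 in Cyp2b-null mice, with adjusted p = 0.0488, was lost without any 1 of 19 libraries. Mup3 and Mup17 had lower estimates in CDAHFD-fed males than females and were not called. In Cyp2b-null mice they were -0.87 (SE 0.328, adjusted p = 0.059) and -1.70 (SE 0.816, adjusted p = 0.143), and in WT mice -0.10 and -0.30. In Cyp2b-null mice Mup3 was called lower in males when any 1 of 4 libraries was left out, with adjusted p down to 0.0229.

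The change with CDAHFD differed between the sexes for 3 members in WT mice, against 0.3% of all genes, and for 7 in Cyp2b-null mice, against 1.31%, with the male change the lower in each. Mup3, Mup20 and Mup21 were called in both genotypes, and Mup7, Mup12, Mup14 and Mup17 in Cyp2b-null mice alone. For Mup3 the male change was 2.05 log2 units below the female change in WT mice (SE 0.464, adjusted p = 0.0211) and 2.87 below it in Cyp2b-null mice (SE 0.468, adjusted p = 3.64e-04). Without CDAHFD-fed WT male replicate 1, 7 members were called in WT mice, the added ones being Mup1, Mup7, Mup12 and Mup14 with adjusted p up to 0.0313, and the value of Mup21 went from -3.07 to -3.81. In Cyp2b-null mice the values of Mup7 and Mup14 were -5.64 and -5.03 without CDAHFD-fed male replicate 4, and that of Mup17 was -5.88 without ND-fed female replicate 3. The WT call of Mup3 was lost without any 1 of 5 libraries (adjusted p up to 0.0598), and in Cyp2b-null mice that of Mup7 was lost without CDAHFD-fed male replicate 3 (0.0504) and that of Mup12 without CDAHFD-fed female replicate 2 or 3 (up to 0.138).

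**Figure D3:**
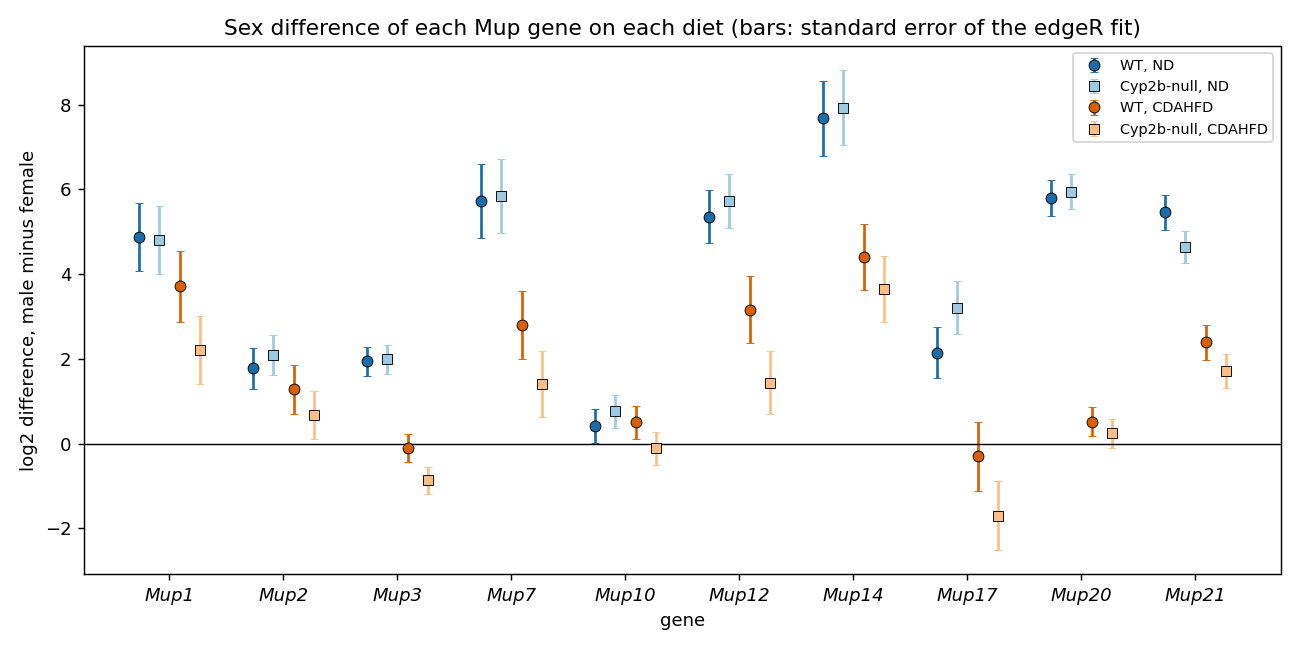
Log2 difference between males and females (vertical axis) for each Mup gene on ND and on CDAHFD in both genotypes, with standard errors as bars. On ND 9 of 10 genes were called higher in males, and on CDAHFD the difference in Mup20 was 0.52 in WT and 0.24 in Cyp2b-null mice.

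Because near-identical copies share reads, the counts of the 10 members were also summed. The sum was 12700 ± 7200 CPM (SD, n = 4) in ND-fed WT males, with libraries from 4840 to 21000 CPM, and 2070 ± 1160 CPM in CDAHFD-fed WT males, with libraries from 1170 to 3760 CPM. It was 16400 ± 5800 CPM and 1700 ± 299 CPM in Cyp2b-null males. The groups did not overlap, and the ratios of means were 6.13-fold and 9.61-fold lower on CDAHFD. In females the sum did not separate the diets, with 1370 ± 466 CPM on ND and 1230 ± 411 CPM on CDAHFD in WT mice and 1510 ± 597 and 1540 ± 458 CPM in Cyp2b-null mice. Over all 30 rows named Mup or Mup-ps, the female means were 2740 ± 966 and 1630 ± 605 CPM in WT mice, a log2 ratio of -0.75, and 3270 ± 1420 and 1990 ± 628 CPM in Cyp2b-null mice, a log2 ratio of -0.72, and the diets overlapped in both. The row Gm21320, a synonym of Mup22 described below, is not among these 30. The sum of the 10 members took from 0.0691% of a female library's counts to 2.03% of a male library's counts.

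The make-up of the sum changed in both sexes. Mup20 took 1.95% ± 0.7 (SD, n = 4) of it in ND-fed WT females and 58% ± 6.72 in CDAHFD-fed WT females, and 2.36% ± 0.68 and 58.8% ± 6.47 in Cyp2b-null females. In males its share went from 11.6% ± 2.77 to 55% ± 17.7 in WT mice and from 12.5% ± 2.18 to 62.8% ± 12.4 in Cyp2b-null mice. On CDAHFD, Mup20 was thus the largest part of the summed counts of these 10 genes in all 4 groups. In females the Mup20 level was higher and 6 (WT) or 5 (Cyp2b-null) other members were called lower, and in males the levels of the other members were lower. Mup7, Mup14 and Mup1 went from 25.7%, 20.7% and 13.5% in ND-fed WT males to 4.2% ± 5.31, 8.6% ± 9.21 and 3.24% ± 3.87 on CDAHFD (SD, n = 4), where replicate 1 held the highest shares, 12.1%, 22.4% and 9.03%.

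**Figure D4:**
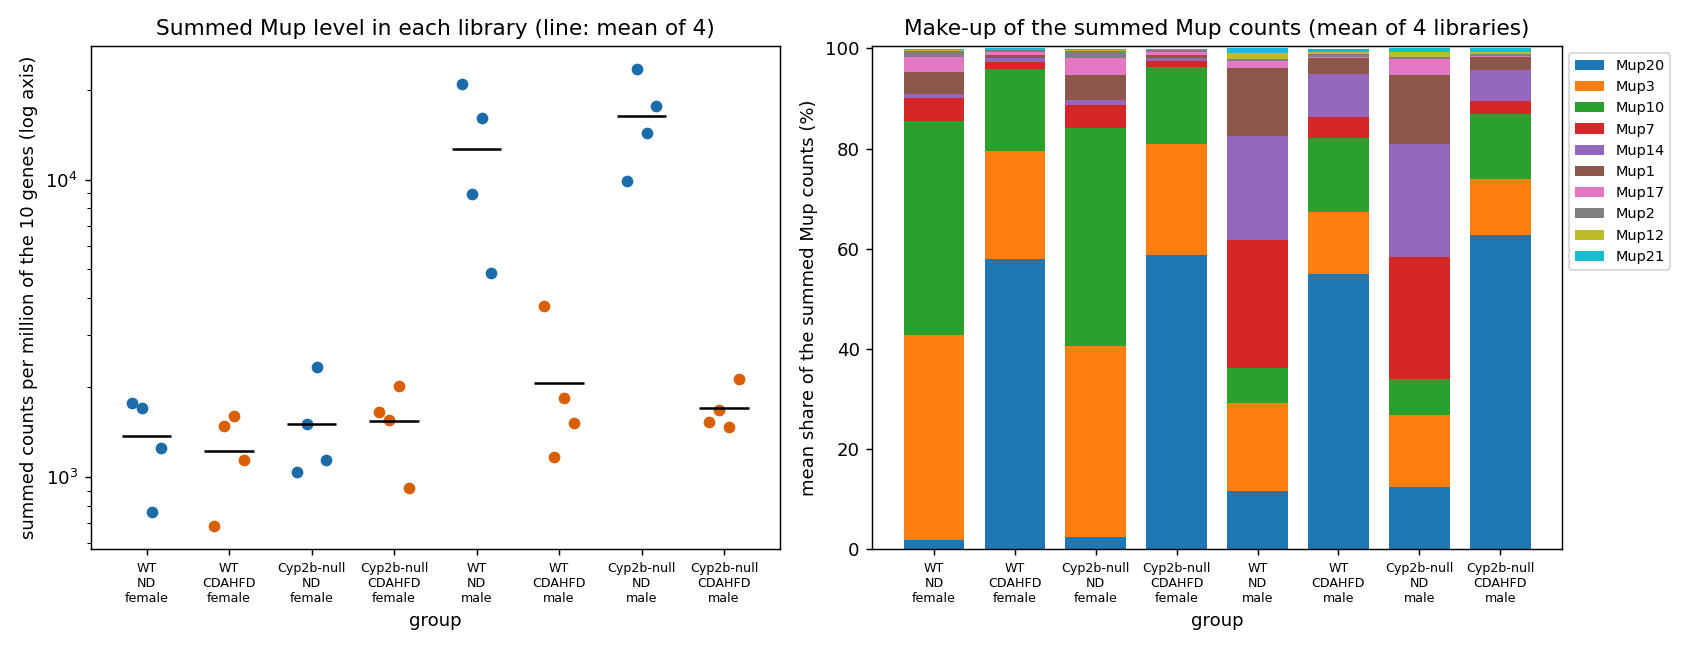
Left, summed CPM of the 10 Mup genes in each library (points, log axis) with group means as lines; right, mean share of each gene in the summed counts (%). The sum was lower on CDAHFD in males, from 12700 to 2070 CPM in WT and from 16400 to 1700 CPM in Cyp2b-null mice, and Mup20 made up 55% to 62.8% of it in every CDAHFD group.

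The third comparison asked whether the loss of the 3 Cyp2b genes changed Mup expression. None of the 10 members was called between Cyp2b-null and WT mice of the same sex and diet by edgeR's quasi-likelihood test or by DESeq2, against 0.0756% and 0.0227% of all genes in ND-fed and CDAHFD-fed females and 0.0371% and 0.0297% in ND-fed and CDAHFD-fed males. At an unadjusted p under 0.05 there was 1 member in ND-fed females (Mup21), 1 in ND-fed males (Mup17) and none in either CDAHFD-fed comparison. Mup17 was higher in ND-fed Cyp2b-null males by 1.42 on the log2 scale (SE 0.538, adjusted p = 0.457), and Mup21 in ND-fed Cyp2b-null females by 0.90 (SE 0.397, adjusted p = 0.841). Without the filter on low counts, edgeR called 2 members in ND-fed males and 5 in CDAHFD-fed males. In that fit the adjusted p of Mup17 in ND-fed males was 2.42e-19 by the same quasi-likelihood test, against 0.457 with the filter. All 10 members passed the filter and have the same counts in both fits, so these calls are not read as genotype differences. The share of all genes called without the filter is not given here, so these counts have no background beside them. For Mup20 the difference between genotypes was 0.28 (SE 0.291) and 0.33 (SE 0.261) in ND-fed and CDAHFD-fed females and 0.42 (SE 0.346) and 0.06 (SE 0.345) in ND-fed and CDAHFD-fed males.

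The response to CDAHFD was not shown to differ between genotypes either. No member was called in the difference between genotypes in either sex by either tool, against 0% of all genes in females and 0.00743% in males, with 0 members at an unadjusted p under 0.05 in females and 1, Mup17, in males (log2 difference -2.37, SE 0.996, adjusted p = 0.731). In males all 10 estimates were negative, with a median of -1.24 beside 0.01 over all genes tested, and CDAHFD-fed WT male replicate 1 stood apart in 7 of these genes. The members share reads and libraries, so their signs are not separate observations. Without the filter on low counts, 7 members were called in males, with the limit given above. The adjusted p of Mup17 was then 1.49e-15, against 0.731 with the filter, both by edgeR's quasi-likelihood test. The difference between genotypes was not called as differing between the sexes for any member on either diet by either tool, with none at an unadjusted p under 0.05 and 0.00713% of all genes called on each diet. A p above the threshold does not show that the genotypes were alike.

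Most of the remaining Mup rows that could be tested fell as well. The tables hold 20 other rows named Mup or Mup-ps, of which 10 were tested in females and 14 in males. With CDAHFD 8 fell and 1 rose in females of each genotype, against 10.2% (WT) and 13.9% (Cyp2b-null) of all genes called lower. In WT males 11 fell, against 15%, and in Cyp2b-null males 13 fell, against 17.1%, with none called higher. The row that rose was Mup-ps19, named here after its values were seen, from a mean of 0.248 to 3.35 CPM in WT females (log2 change 3.40, adjusted p = 0.00161). Mup-ps19 is a pseudogene at chr4:61957149-61959911 on the minus strand, its transcript matched Mup20 at all 519 of its bases around a gap, and 65.4% of its 150-base stretches occur in Mup20 and 0% in any other member. Reads counted on it cannot be told apart from Mup20 reads there. The row Gm21320, a synonym of Mup22 in RefSeq, had means of 3570 and 1160 CPM in ND-fed and CDAHFD-fed WT females and 5880 and 1800 CPM in WT males, so the 10 members are not the whole Mup output. Its means of 1160 and 1240 CPM in CDAHFD-fed WT and Cyp2b-null females and 1800 and 1490 CPM in CDAHFD-fed WT and Cyp2b-null males were above those of Mup20. Between ND-fed WT males and females the log2 difference of Gm21320 was 0.72 and was not called (adjusted p = 0.216, edgeR quasi-likelihood test). Of the 14 other Mup rows tested there, 8 were called higher in males, against 8.35% of all genes, and 1 lower (Mup-ps16, -2.22, adjusted p = 4.14e-05).

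Genes of the growth hormone pathway and known regulators of Mup genes were examined as a list of 24. In WT males 9 of the 22 tested fell and 1 rose with CDAHFD, and in WT females 7 of 23 fell and 1 rose, where over all genes 15% fell and 18% rose in WT males and 10.2% fell and 13.9% rose in WT females. The same shares are the background for the lists below. The receptor gene Ghr fell from 817 ± 36.5 to 399 ± 125 CPM (SD, n = 4) in WT males, a log2 change of -1.03 (SE 0.168, adjusted p = 6.32e-05), and from 630 ± 37.1 to 270 ± 61.9 CPM in WT females, a log2 change of -1.20 (SE 0.16, adjusted p = 1.23e-05). Igfals, which encodes a growth hormone-dependent carrier subunit of IGF-1, fell by 0.93 in WT males (SE 0.165, adjusted p = 1.75e-04), and its log2 change in WT females was -0.37 (SE 0.217, adjusted p = 0.234). Thrb, a thyroid hormone receptor, fell by 1.08 in WT males and by 0.98 in WT females. Onecut1, a hepatocyte transcription factor, fell by 1.74 in WT males (SE 0.644, adjusted p = 0.0426), and its log2 change in Cyp2b-null males was -0.04 (SE 0.591, adjusted p = 0.963). The genotypes were not shown to differ in this. Of the 22 genes tested in males, 0 were called in the difference between genotypes' responses, against 0.00743% of all genes. Cux2, a female-specific repressor of male-biased genes that is named here after its values were seen, had means of 40.5 and 8.26 CPM in ND-fed and CDAHFD-fed WT females and 36.5 and 5.39 CPM in the Cyp2b-null females. None of the 23 tested was called as changing differently between the sexes. Over all genes, 0.3% in WT and 1.31% in Cyp2b-null mice were called with the male change the lower. With shares this small, these counts of 0 do not show that the responses were alike.

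Other sex-biased liver genes were examined as lists of 18 male-biased and 16 female-biased genes. Of the male-biased list, 16 of the 17 tested were called higher in ND-fed WT males than females, against 8.35% of all genes. Not every listed gene showed the bias here, since Dio1 had means of 82.5 CPM in ND-fed WT males and 123 CPM in the females. Of 18 male-biased, growth hormone-dependent genes, 14 of the 17 tested fell with CDAHFD in WT males and 15 in Cyp2b-null males, none rose, and the median log2 change was -1.71 and -2.35. Examples in WT males were Hsd3b5, a male-specific ketosteroid reductase (-5.23, SE 0.624, adjusted p = 1.57e-06), Elovl3, a fatty acid elongase (-4.94, SE 0.42, adjusted p = 1.88e-08), Serpina1e, an alpha-1-antitrypsin (-2.64, SE 0.779, adjusted p = 0.0121), and the cytochrome Cyp2u1 (-2.61, SE 0.362, adjusted p = 1.04e-05). In WT females 2 of 14 rose and 3 fell. Of 16 female-biased genes, 15 fell in WT females, with a median of -2.64, and 3 of 9 tested rose and 4 fell in WT males.

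Other lipocalin-fold proteins showed that members of the wider fold moved in both directions. Of 13, 3 of 9 tested rose and 3 fell in WT males, and 2 of 10 rose and 4 fell in WT females. Lcn2, an acute-phase siderophore binder, rose by 7.26 in WT males (SE 0.289, adjusted p = 7.44e-13) and by 7.02 in WT females (SE 0.609, adjusted p = 5.66e-08) on the log2 scale. Orm2, an acute-phase plasma carrier, rose by 4.78 and 3.67. Orm3 rose by 2.81 in WT males, and Fabp1, the liver fatty acid-binding protein, fell by 1.12 there.

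Markers of other cells moved with the diet, and their part in the Mup changes was not tested. With CDAHFD, 7 of 8 macrophage markers and 6 of 8 stellate cell and fibroblast markers rose in WT mice of both sexes. The summed macrophage level went from between 171 and 372 CPM to between 931 and 1980 CPM in WT males and from between 430 and 679 CPM to between 1100 and 1440 CPM in WT females. Summed stellate and fibroblast markers went from between 64.2 and 77.6 to between 346 and 565 CPM in WT males and from between 56.2 and 109 to between 349 and 517 CPM in WT females. Of 5 cholangiocyte markers tested 2 rose in WT males, and of these Spp1 went from a mean of 17.7 to 139 CPM, whereas Krt19 had means of 2.07 and 2.21 CPM. Of 6 endothelial markers 1 rose and 1 fell in WT males, and none of the lymphocyte markers tested in WT mice was called, with a summed level of at most 12.2 CPM over the list of 7. No hepatocyte marker was near 0 in any group (lowest group mean 1180 CPM, Serpina1c). Of the 10 hepatocyte markers 6 fell and 2 rose in WT males, and 5 fell and 1 rose in WT females. Their summed level went from between 161000 and 177000 to between 98300 and 158000 CPM in WT males and from between 174000 and 245000 to between 128000 and 145000 CPM in WT females.

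Over libraries, the genes whose levels were most like the summed Mup level were ranked by Pearson's r of log2 CPM over the 16 libraries of a sex, as a description of points that share depth and diet. In males they were Gm21320 (0.986), Cyp7b1 (0.977), Ugt2b1 (0.974), Aes (0.972) and Rgn (0.971). Gm21320 is a synonym of Mup22, so its value sets the Mup family against itself. In females they were Gm1821 (0.798), Rfc4 (0.788), Slco1a1 (0.758), Gm5644 (0.724) and Tgm4 (0.718).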

How the data were processed

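Liver RNA was sequenced as paired 150-base reads. Per the labels and the study's methods, the authors trimmed reads with Trimmomatic, aligned them to GRCm38.p6 with GSNAP and counted them per gene with Subread featureCounts, and deposited raw counts in 1 table per sex. Versions, strand setting and the handling of multi-mapping reads are not given in the sources used here. Here, genes were kept by filterByExpr (minimum count 10, minimum total 15) and scaled by TMM, which left 13226 genes in females, 13460 in males and 14020 in all libraries. Diet and genotype were tested within each sex (16 libraries) and sex over all 32, by edgeR 4.0.16 quasi-likelihood tests, with Benjamini-Hochberg adjustment over all genes and a threshold of 0.05. DESeq2 1.42.0 was an alternative. Scripts were tested on simulated data. Every member is named by rule, with full values for those on which results turn, and for each context list up to 4 genes with the largest changes with CDAHFD in WT males, beside exceptions named as such. The members and lists were chosen with earlier results of these data known. Transcripts came from GENCODE vM21 and promoters from RefSeq (GRCm38.p6). No 2 libraries of the same group were duplicates, and pairs across groups were not compared.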

Additional observations from a re-analysis of the deposited data

Results flagged for a closer look

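In 18 of 88 series of gene or summed level by group, 1 library lay apart from the other 3 by Dixon's 95% criterion, which chance alone passes in about 1 in 20. Since the members share reads and libraries, these are not separate events. CDAHFD-fed WT male replicate 1 was high in 7 members. It measured 340 CPM for Mup1 (others 15.6 to 24.2), 30.5 for Mup2 (5.49 to 6.74), 457 for Mup7 (13.1 to 31.2), 534 for Mup10 (214 to 223), 33.2 for Mup12 (2.71 to 3.62), 842 for Mup14 (44.2 to 83.2) and 34.9 for Mup21 (7.81 to 10.4). CDAHFD-fed Cyp2b-null male replicate 4 was high in 4, with 112 CPM for Mup1 (others 17.9 to 30.2), 272 for Mup3 (162 to 170), 135 for Mup7 (18 to 25.4) and 254 for Mup14 (46.4 to 80.8).

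In females, ND-fed WT replicate 3 was low, with 9.76 CPM for Mup2 (others 16.7 to 18), 13.1 for Mup17 (52.7 to 58.8) and 1.68 for Mup21 (2.68 to 2.78). ND-fed Cyp2b-null replicate 3 was high, with 128 CPM for Mup7 (others 48.1 to 58.5) and 151 for Mup17 (22.7 to 32.8). CDAHFD-fed Cyp2b-null replicate 4 had 1.93 CPM of Mup17 (others 11.3 to 12.1), and ND-fed WT replicate 1 had 49.3 CPM of Mup20 (others 17.2 to 22.2).

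The change with CDAHFD differed between the sexes for 3 members in WT mice and 7 in Cyp2b-null mice by an interaction term in the fit to all 32 libraries (adjusted p from edgeR's quasi-likelihood test). As the male minus the female log2 change, it was -2.05 for Mup3 (adjusted p = 0.0211), -5.29 for Mup20 (3.98e-08) and -3.07 for Mup21 (0.0111) in WT mice. In Cyp2b-null mice it was -2.87 for Mup3 (3.64e-04), -4.44 for Mup7 (0.0183), -4.30 for Mup12 (0.0218), -4.27 for Mup14 (0.0186), -4.91 for Mup17 (0.00484), -5.71 for Mup20 (1.2e-08) and -2.92 for Mup21 (0.00339).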

How the results depend on the processing

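The calls of Mup20 with CDAHFD in females and between the sexes' responses held under every alternative run. Values that moved are given as member counts or log2 values, and the cause was not tested. Without a filter on low counts, members called were 2 (genotype, ND-fed males), 5 (genotype, CDAHFD-fed males), 7 (genotype by diet, males), 8 and 8 (sex on CDAHFD, WT and Cyp2b-null), 8 (sex by diet, WT), and 1 and 4 (sex by genotype, ND and CDAHFD). Of the 8 for sex on CDAHFD in Cyp2b-null mice, 6 were higher in males and 2, Mup3 and Mup17, were lower. A fit to the compared groups alone called 5 there, 3 of them higher in males and 2, again Mup3 and Mup17, lower. These counts are given without the share of all genes called in the same fits. On library size alone, Mup14 with CDAHFD in WT females was 0.22 and the genotype by diet value of Mup20 in females was -0.01.

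Without both high CDAHFD-fed male libraries (added after seeing the data), 2 members were called for sex on CDAHFD in WT mice and 7 for sex by diet in WT mice. Genotype values in CDAHFD-fed males were 0.13 (Mup17) and 0.31 (Mup21), Mup21 was 0.26 for genotype by diet in males and 0.06 for sex by genotype on CDAHFD, and Mup10 was -0.42 for sex by diet in WT mice. With the 30 rows named Mup or Mup-ps summed, the log2 ratio of diets in Cyp2b-null females was -0.72, and the Mup20 share was 0.995% and 44.3% in WT females on ND and CDAHFD, 1.11% and 46% in Cyp2b-null females and 9.43% and 49.8% in Cyp2b-null males. This sum leaves out Gm21320, a synonym of Mup22 with means of 3570 and 1160 CPM in ND-fed and CDAHFD-fed WT females, so these are not shares of the whole Mup output.

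With single libraries left out, members called ranged from 2 to 5 (sex on CDAHFD, WT) and 2 to 7 (sex by diet, WT). Log2 values ranged from -0.83 to 0.19 for Mup14 with CDAHFD in WT females. Genotype values in females ranged from -0.62 to 0.63 (Mup17, ND) and -0.1 to 0.44 (Mup21, CDAHFD), and in males from -0.15 to 0.26 (Mup21, ND), -1.32 to 0.24 (Mup17, CDAHFD), -0.08 to 0.19 (Mup20, CDAHFD) and -0.64 to 0.31 (Mup21, CDAHFD). Genotype by diet values ranged from -0.17 to 1.07 (Mup17) and -0.46 to 0.22 (Mup20) in females and -0.69 to 0.26 (Mup21) in males. Sex differences on CDAHFD ranged from -0.43 to 0.07 (Mup3, WT), -1.51 to 0.14 (Mup17, WT) and -0.42 to 0.06 (Mup10, Cyp2b-null). Interactions ranged from -0.37 to 0.47 (Mup10, sex by diet, WT), -0.36 to 0.55 (Mup20, sex by genotype, ND) and -0.89 to 0.06 (Mup21, sex by genotype, CDAHFD).

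No clear pairing by replicate number was seen. Same-numbered libraries' deviations had a median correlation of -0.00314 in females and 0.022 in males, beside -0.00379 and -0.0127 for other pairs. The highest same-numbered values were 0.132 and 0.269, and 5 and 6 of 16 libraries correlated best with their own number. Such correlations cannot exclude that some libraries were paired. With the replicate block, 4 members were called for sex on CDAHFD in WT mice, Mup17 between genotypes in ND-fed females was -0.03, and the genotype by diet value of Mup20 in females was -0.01. The other member counts were those without the block. Depth limits Mup12 and Mup21 in females most, with 0 to 21 and 5 to 36 counts a library.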
